A study of Microtus ochrogaster with 25 samples.

Results

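The subject is 1 gene, ENSMOCG00000000033, the row for ND6 among the 13 mitochondrial protein rows of a table of 19648 genes in bulk tissue of the nucleus accumbens, part of the reward circuitry of the forebrain, from prairie voles (Microtus ochrogaster). The rule that picks the row uses its place in the mitochondrial gene order and no measured value. The deposited table gives identifiers without gene symbols, so the name rests on that order. Of the 37 identifier numbers that the vertebrate mitochondrial order would fill, the table held 13, and all 13 fell on positions of protein genes. One feature of the values bears on the order: only the rows at the positions of ATP8 and ATP6, whose reading frames overlap in vertebrates, held counts with decimals other than 0, both in 25 of 25 libraries, and their sum was whole in 25 of 25 (within 0.002, for rounding). The other 11 rows were exactly whole in every library. Neither check tells ND6 from another row on its own.

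The 25 libraries fell into 4 groups: 7 MAN0 females, 6 MAN1 females, 7 MAN0 males and 5 MAN1 males. MAN0 and MAN1 are the treatment names in the labels, which do not define them. As background, work on early handling in voles uses these names for families moved without direct touch (MAN0) or picked up by hand (MAN1) early in the life of the pups. The labels give no age, strain, litter or animal identity for any group, and they do not state that each library came from its own animal, so p-values cover only the library-to-library spread, which may be technical. The labelled tissue was not checked against marker genes, because no source at hand paired the identifiers with symbols. In bulk tissue, fewer cells of a type and less RNA per cell cannot be told apart.

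Mammalian mitochondrial DNA is read from both strands, named heavy and light, as long precursor RNAs that are then cut into single messengers. ND6 is the only protein gene of the light strand. It encodes a membrane subunit of complex I, the entry point for electrons from NADH in the respiratory chain. Its neighbours lie on the heavy strand: ND5 (ENSMOCG00000000032), a proton-pumping subunit of complex I, and CYTB (ENSMOCG00000000035), cytochrome b of complex III. In human cells the ND6 messenger is known to lack the poly(A) tail that the heavy-strand messengers carry. These libraries were made from RNA captured as messenger RNA on magnetic beads, per the labels' protocols. The library kit marks strand, but whether the counting used strand is not given in the sources used here. Without it, reads from heavy-strand RNA that runs antisense through ND6 cannot be told apart from reads of ND6 itself.

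Library totals lay between 19882151 and 32570010 counts, and the 13 mitochondrial rows took 7.17% to 17.8% of a library. The last number in the sample titles starts again at 1 after library 16. Libraries up to 16 are called run 1 here, 16 in all with 4 per group. The later 9 are called run 2 and hold 3 of the MAN0 group in each sex, with 2 females and 1 male of MAN1. The labels do not say what the restart stands for. MAN0 male 2 stood apart in the share of mitochondrial counts, with the 17.8%. MAN0 female 7 stood apart in the balance among mitochondrial rows, as described below. The main values that moved most with either library are also given without it.

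ND6 had between 1764 counts (MAN1 male 5) and 5638 counts (MAN0 male 2) in a library. Counting error alone therefore lay between 1.33% and 2.38% of the value. It leaves out PCR duplication, which cannot be seen without molecular identifiers. The unit of level below is CPM after TMM scaling, the count relative to a library total adjusted by its TMM factor. They are not divided by gene length, because no length was at hand, so levels of different genes are not ranked against each other. Over the 25 libraries ND6 had a median of 120.1 CPM, with a lowest library at 79.8 CPM and a highest at 285 CPM.

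By group mean, ND6 stood in the order MAN0 males, MAN0 females, MAN1 females, MAN1 males. In MAN0 males the mean was 150.3 ± 61.2 CPM (SD, n = 7), with a lowest value of 120.8, a median of 121.4 and a highest of 285 CPM. MAN0 females had 136 ± 36.6 CPM (n = 7), with 92.4, 140.04 and 179 CPM as the lowest, median and highest. The mean was 117 ± 23.3 CPM in MAN1 females (n = 6), with 95.1, 110.2 and 161 CPM. Neighbours in this order differed in their means by less than the larger of their SDs. The order of the first 2 groups turned with the measure, since the median of MAN0 females lay above that of MAN0 males. MAN0 male 2 lifted the MAN0 male mean the most: 5 of the other 6 MAN0 males lay between 120.8 and 121.9 CPM, and MAN0 male 6 had 160.9 CPM.

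**Figure D1:**
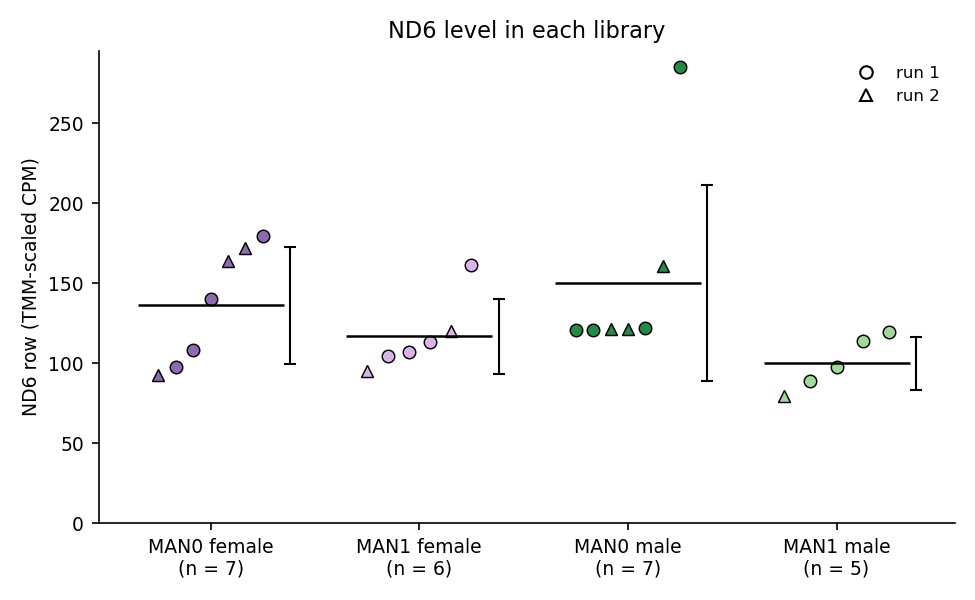
ND6 level in TMM-scaled CPM (vertical axis) for each library by group, with circles for run 1 and triangles for run 2; horizontal lines are group means and bars are ± 1 SD. All 5 MAN1 males lie below all 7 MAN0 males, by a margin from 119.3 to 120.8 CPM, whereas the female groups overlap; MAN0 male 2 stands alone at 285 CPM.

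The series title puts the effect of parental care in males, so ND6 was compared between MAN1 and MAN0 within each sex. In MAN1 males 1 to 5 it had 88.6, 119.3, 113.7, 97.9 and 79.8 CPM, a mean of 99.9 ± 16.6 CPM (SD, n = 5). All 5 lay below each of the 7 MAN0 males, and the groups did not overlap. The gap between the highest MAN1 male (119.3 CPM) and the lowest MAN0 male (120.8 CPM) was smaller than the counting error of either library (1.83% each). ND6 was the only one of the 13 mitochondrial rows without overlap in males, among 0.714% of the 14843 genes tested whose MAN1 males all lay below all MAN0 males. A further 1.02% of genes had all MAN1 males above. The separation of ND6 was also present with RLE size factors, with scaling on non-mitochondrial genes and on library totals alone, settings chosen after the values were seen.

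In the joint model of all libraries with run as a term, the log2 fold change of ND6 in males was -0.62 (SE 0.22), a 1.54-fold lower estimate in MAN1. It did not pass over all genes (edgeR quasi-likelihood, unadjusted p = 0.0086, Benjamini-Hochberg adjusted p = 0.60). An unadjusted p under 0.05 was found for 7.34% of all genes, 4.95% with a lower estimate, and 0% passed after adjustment. Without MAN0 male 2 the log2 fold change was -0.37 (edgeR, unadjusted p = 0.05, Benjamini-Hochberg adjusted p = 0.923). Within run 1 it was -0.63 and within run 2, with 1 MAN1 male, -0.77 (edgeR, Benjamini-Hochberg adjusted p = 0.452 and 1). The summed share of the 13 mitochondrial rows lay lower in MAN1 males too, at 8.81% ± 0.889 against 11.06% ± 3.04 in MAN0 males (n = 5 and 7), and its part in the level of ND6 was not tested apart from the ratios below. Without MAN0 male 2 the MAN0 male share was 9.94% ± 0.741 (n = 6).

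In females the groups overlapped over most of their range, and 5 of 6 MAN1 females lay below the MAN0 mean. The log2 fold change was -0.24 with an SE of 0.20 (adjusted p = 0.988 by Benjamini-Hochberg in edgeR), in a comparison where 0% of genes passed. Before adjustment 2.46% of genes had p under 0.05, and 1.4% did so with a lower estimate. The log2 fold change of ND6 was -0.11 in run 1 and -0.41 in run 2. Averaged over the sexes it was -0.43 (SE 0.15, edgeR, unadjusted p = 0.00814, Benjamini-Hochberg adjusted p = 0.413), where 12% of genes had an unadjusted p under 0.05, 6.91% with a lower estimate. Without MAN0 male 2 that average was -0.30. The interaction, male minus female log2 fold change and the direct test of a difference between the sexes, was -0.38 (SE 0.29) and did not pass (edgeR, Benjamini-Hochberg adjusted p = 1). Without MAN0 male 2 the interaction estimate was -0.14. Males and females differed by -0.058 (SE 0.15, edgeR, Benjamini-Hochberg adjusted p = 0.985), where 0.0135% of genes passed. That difference ranged from -0.16 without MAN0 male 2 to -0.0012 without MAN1 female 3, and was -0.020 without MAN0 female 7. Again 0% of genes passed in the interaction and in the average.

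The heavy-strand rows had lower estimates in MAN1 as well. In males all 12 had a negative log2 fold change, from -0.46 for COX2, a cytochrome c oxidase subunit of complex IV, to -0.32 for ND4L, a small membrane subunit of complex I, with a median of -0.38. The median over all genes tested was 0.0072. ND5 had -0.38 (SE 0.19) and CYTB -0.37 (SE 0.19). None of the 12 passed (each with an adjusted p of 0.60 by Benjamini-Hochberg in edgeR). Before adjustment 5 of the 12 had p under 0.05, against 7.34% of all genes, 4.95% with a lower estimate. The estimate of ND6 was the lowest of the 13 in males. Without MAN0 male 2, a setting chosen after the values were seen, the 12 male estimates were nearer to 0, from -0.23 to -0.075 with a median of -0.17. ND5 then had -0.20 (SE 0.16), CYTB -0.16 (SE 0.16) and ND6, still the lowest, -0.37. In that fit 0 of the 12 had an unadjusted p under 0.05 in edgeR, against 420 of all 14834 genes tested. In females all 12 were negative too, from -0.28 to -0.10 with a median of -0.20, and ND6 lay inside that range. The other 12 rows vary together across libraries, so these counts are not separate pieces of support.

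**Figure D2:**
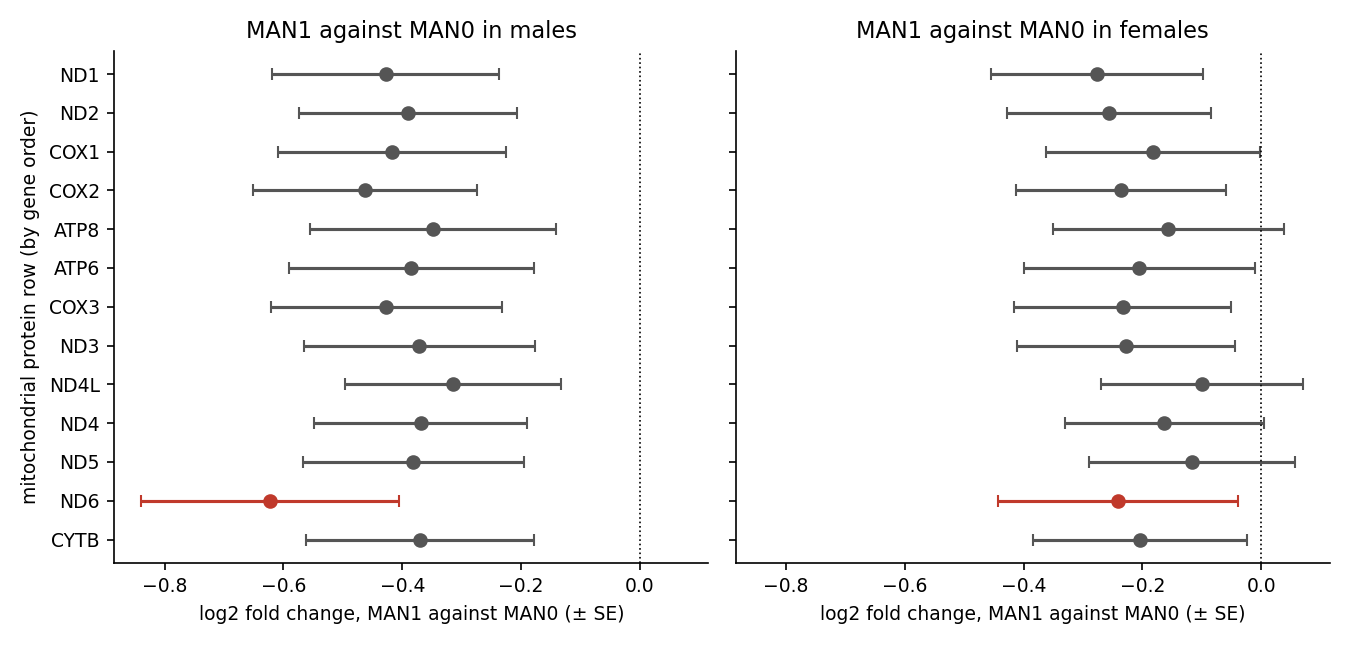
Log2 fold change of MAN1 against MAN0 (horizontal axis, ± SE from the edgeR quasi-likelihood test) for the 13 mitochondrial protein rows in gene order, in males (left) and females (right), with ND6 in red. All estimates are negative in both sexes, ND6 is lowest in males at -0.62, and no row passed in either sex.

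The ratio of ND6 to a neighbour in the same library does not depend on how libraries are scaled. It asks whether the ND6 row moved apart from the rows of its heavy-strand neighbours. With the strand setting unknown, the ratio cannot be read as a measure of the light-strand messenger alone. Over the 25 libraries the ND6 count was 3.37% of the ND5 count at the median, from 2.51% in MAN1 female 5 to 5.57% in MAN0 female 7. It was 1.40% of the CYTB count at the median, from 1.12% in MAN1 female 5 to 1.82% in MAN0 female 1. Both ratios were tested by 2-sided exact permutation, in 12 tests over 6 comparisons. Treatment was permuted within run and sex, sex within run and treatment, and run within group.

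Relative to CYTB, ND6 was 1.26%, 1.34%, 1.40%, 1.17% and 1.22% of the CYTB count in MAN1 males 1 to 5. The mean was 1.28% ± 0.0922 (SD, n = 5). MAN0 males had 1.49% ± 0.188 (n = 7), with 1.24%, 1.45% and 1.80% as the lowest, median and highest. The groups overlapped, with 5 of 7 MAN0 males above every MAN1 male and 2 of 5 MAN1 males below every MAN0 male. The log2 difference was -0.23 (SE 0.11, exact permutation p = 0.0357), and it did not pass after adjustment over the 12 tests (Benjamini-Hochberg adjusted p = 0.402). Against the summed other 12 rows it was -0.21 (exact permutation p = 0.0536). It was -0.17 in run 1 and -0.32 in run 2, with an exact permutation p of 0.171 and 0.50. With 1 MAN1 male, run 2 allows only 4 assignments, too few for a p under 0.05.

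Relative to ND5, ND6 was 2.83%, 3.30%, 3.16%, 2.67% and 2.79% of the ND5 count in MAN1 males 1 to 5. The MAN0 males spanned 2.72% to 4.23% with a median of 3.37%, so the groups overlapped while all 5 MAN1 males lay below the MAN0 median. The log2 difference was -0.22 (SE 0.15, exact permutation p = 0.0857, adjusted p = 0.402). The companion ratio of both heavy-strand neighbours, a comparison added after the values were seen, was close in the male groups. ND5 was 43.3% ± 1.66 of the CYTB count in MAN1 males and 43.4% ± 1.52 in MAN0 males (SD, n = 5 and 7). The log2 difference was -0.014 (exact permutation p = 0.682).

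In females neither ratio separated the groups. ND6 was 1.43% ± 0.167 of CYTB in MAN1 females (n = 6) and 1.43% ± 0.227 in MAN0 females (n = 7), with a log2 difference of 0.0008 (SE 0.10, exact permutation p = 0.993). Against ND5 the MAN1 females had 2.51%, 3.41% and 3.54% as the lowest, median and highest, and the MAN0 females 2.54%, 3.44% and 5.57%. That log2 difference was -0.079 (SE 0.14, exact permutation p = 0.667). It turned to 0.037 without MAN0 female 7. The male difference lay below the female one by -0.23 for CYTB (SE 0.15, exact permutation p = 0.137, adjusted p = 0.402) and by -0.14 for ND5 (SE 0.21, exact permutation p = 0.531, adjusted p = 0.708). The ND5 value ranged from -0.28 without MAN0 female 7 to -0.053 without MAN0 female 5. A different ND6 balance in the sexes was thus not shown at this number of libraries. Averaged over the sexes the log2 differences were -0.12 for CYTB (exact permutation p = 0.139) and -0.15 for ND5 (exact permutation p = 0.167). Males against females gave -0.05 and -0.086 (exact permutation p = 0.52 and 0.385), the latter -0.03 without MAN0 female 7. None of the 12 tests passed, with adjusted p between 0.402 and 0.993.

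**Figure D3:**
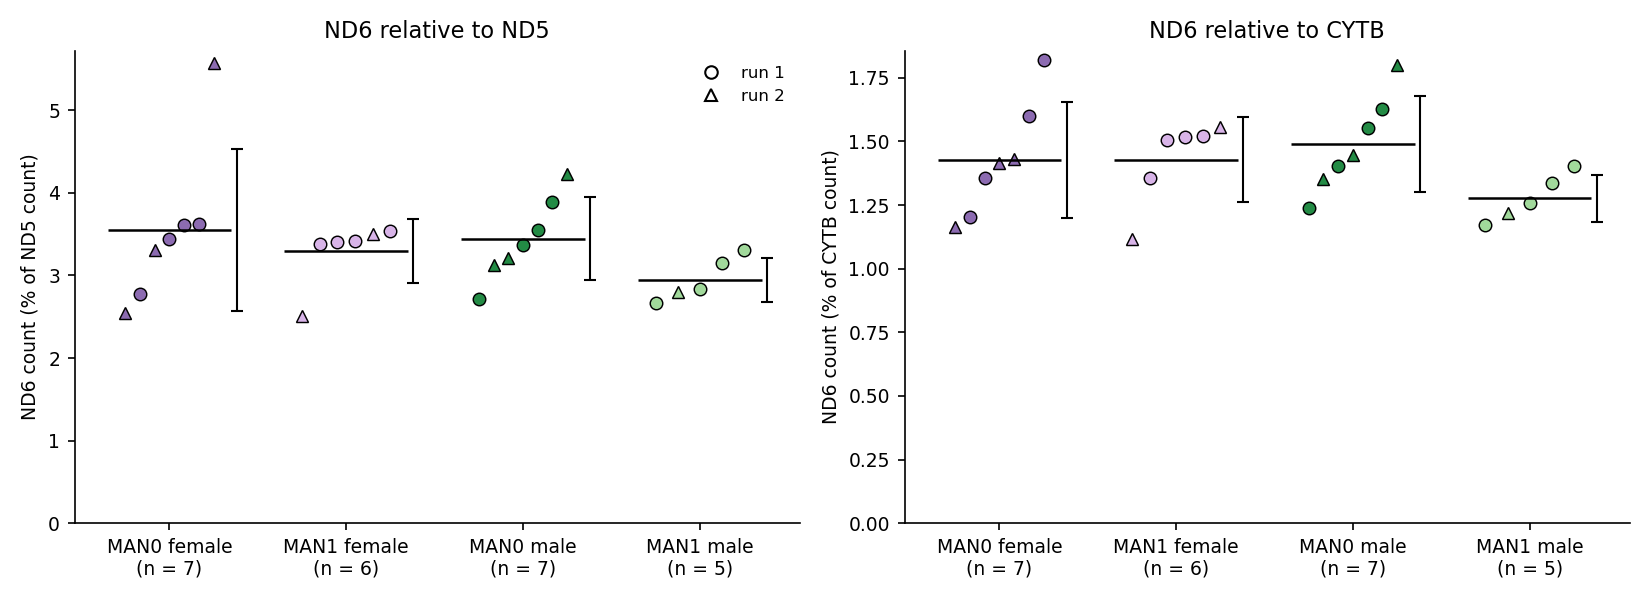
ND6 count as a percentage of the ND5 count (left) and of the CYTB count (right) in each library by group, circles for run 1 and triangles for run 2, with group means (lines) and ± 1 SD (bars). The 5 MAN1 males lie low in both panels but overlap the MAN0 males; MAN0 female 7, at 5.57% of ND5, is not high relative to CYTB (1.43%).

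The runs overlapped in the level of ND6. Run 1 had 129.97 ± 47.5 CPM (SD, 16 libraries; median 116.5) and run 2 had 125 ± 33.6 CPM (9 libraries; median 121.3). The log2 difference of run 2 from run 1 in the joint model was -0.14 with an SE of 0.15 (adjusted p = 0.999 by Benjamini-Hochberg in edgeR), where 0% of genes passed. It was -0.016 without MAN0 male 2. The ND6 to CYTB ratio was 1.43% ± 0.176 in run 1 and 1.39% ± 0.211 in run 2, a log2 difference of -0.073 (exact permutation p = 0.367). For ND5 the percentages were 3.29 ± 0.364 and 3.42 ± 0.962, with a model difference of -0.014 (exact permutation p = 0.907). The wider spread in run 2 came with MAN0 female 7, and the log2 difference without it was -0.10.

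MAN0 female 7 differed from the other libraries in the heavy-strand rows, not in ND6 relative to CYTB. Its ND5 count was 25.7% of its CYTB count, while the other 24 libraries lay between 39.4% and 50.4%. On the log2 scale relative to CYTB and to the median library, ND4L was at -0.88, ND5 at -0.77, ATP8, a small subunit of ATP synthase, at -0.45 and ND4, a complex I subunit, at -0.24. ND3, another complex I subunit, was at 0.27 and ND6 at 0.03. The high ND6 to ND5 ratio of this library therefore came with a low ND5 count.

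Across libraries ND6 followed the heavy-strand rows. With CYTB the log2 CPM of ND6 had Pearson r = 0.884 and Spearman rho = 0.778 over 25 libraries (permutation p = 1e-05, the smallest the permutations can give, and 3e-05; adjusted p = 3e-05 and 4.5e-05 over 6 tests). The r was 0.910 in run 1, 0.839 in run 2, 0.871 within group and run, and 0.776 without MAN0 male 2 and MAN0 female 7, the libraries farthest from the median. With ND5 it was r = 0.782 and rho = 0.675 (permutation p = 5e-05 and 0.00034, adjusted p = 6e-05 and 0.00034). That r was 0.921 in run 1 and 0.475 in run 2, and 0.577 without MAN0 male 2 and MAN0 female 3. With the summed other 12 rows it was r = 0.902 and rho = 0.796 (permutation p = 1e-05 and 2e-05, adjusted p = 3e-05 and 4e-05), with 0.934 in run 1, 0.834 in run 2 and 0.797 without MAN0 male 2 and MAN0 female 3. All these rows share the library total and its scaling factor. As shares of the 13 mitochondrial counts, r was -0.13 with CYTB and -0.15 with ND5 (permutation p = 0.547 and 0.483). That scale drops the library total and its factor, but also any change common to the 13 rows. These r therefore cannot show whether the shared scaling lay behind the values above.

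**Figure D4:**
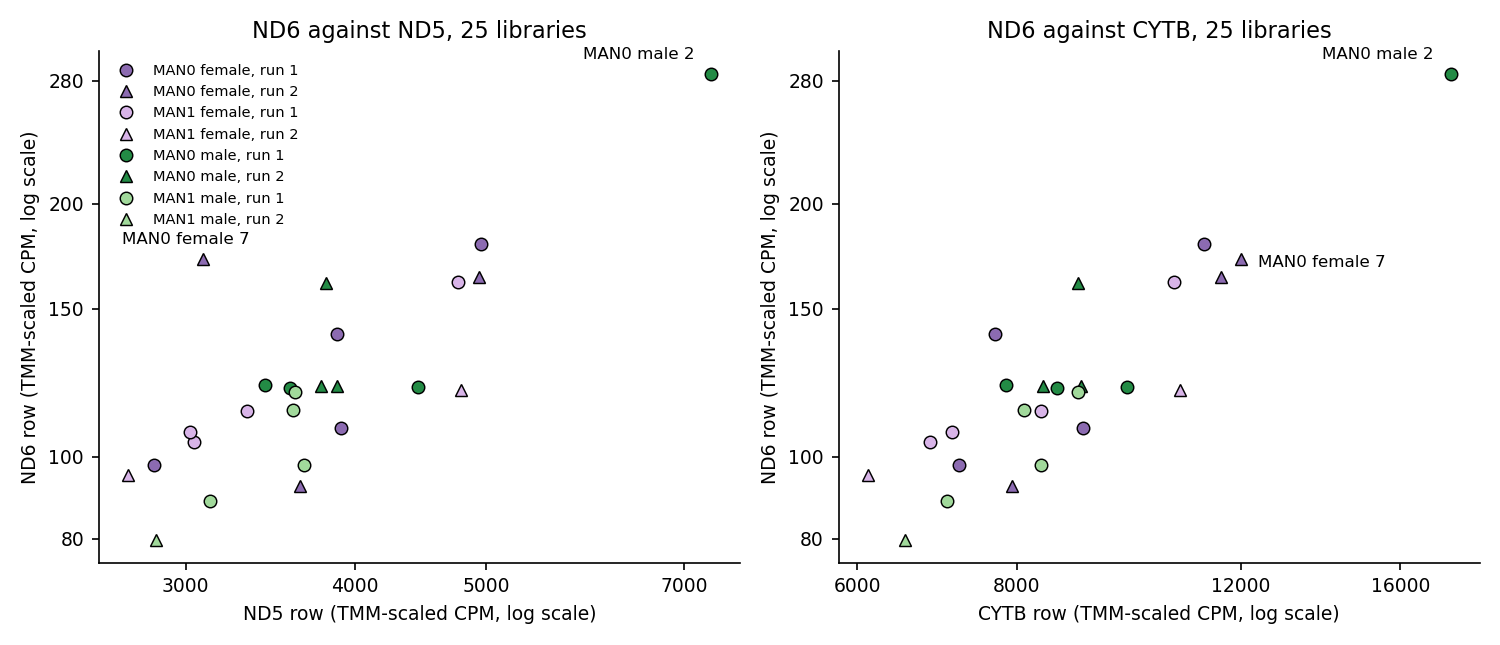
ND6 level against ND5 (left) and CYTB (right), both in TMM-scaled CPM on log axes, for the 25 libraries coloured by group, circles for run 1 and triangles for run 2. ND6 rises with both (r = 0.782 and 0.884); MAN0 male 2 is highest on all 3 rows, and MAN0 female 7 leaves the trend for ND5 but not for CYTB.

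Over all 25 libraries ND6 was, at the median, less tightly tied to the heavy-strand rows than these were to each other. In deviations from group and run means, as a description, its r with the 12 rows had a median of 0.854, from 0.709 for ND4L to 0.917 for COX2. The 66 pairs of heavy-strand rows had a median of 0.943, from 0.732 to 0.992. Among 12671 genes ranked by r with ND6, COX2 came first, and 3 of the 12 mitochondrial rows were in the first 12. The median r over those genes was -0.0755. The highest outside the mitochondrial set were ENSMOCG00000021318 (r = 0.906), ENSMOCG00000021390 (0.904) and ENSMOCG00000003786 (0.899). CYTB stood at rank 28 and ND5 at rank 598. Leaving out MAN0 female 7 raised the r of ND5 to 0.855, and leaving out MAN0 male 2 lowered the median of the 12 to 0.760. The pairs of heavy-strand rows were not recomputed without either library.

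The ratio of ND6 to the rest of the mitochondrial set also varied more between libraries than that of the other rows. Within group and run, the SD of its log2 ratio to the summed other 12 rows was 0.174. For the other 12 rows, each against its own remainder, it lay between 0.0503 (ND4) and 0.165 (ND5). Without MAN0 female 7 the value was 0.175 for ND6 and between 0.0419 and 0.101 for the others. Counting error would give an SD of 0.0269 for ND6, so its spread was 6.48 times what counting gives. For the other 12 rows, which have more counts, the spread was 13.98 to 33.5 times their own counting SD, so ND6 had the lowest such multiple of the 13. With CYTB as the denominator, ND4L had the largest SD over all libraries (0.186), then ND6 (0.184) and ND5 (0.176). Without MAN0 female 7, ND6 had the largest at 0.188, and the next was ATP8 at 0.110. No test of these differences in spread was run. In level, the biological coefficient of variation estimated by edgeR was 25.3% for ND6, above that of 78.3% of the genes tested, and 21.3% to 24.5% for the other mitochondrial rows. These values include MAN0 male 2 and were not recorded without it. The SE of the male log2 fold change of ND6 was 0.22 with that library and 0.18 without it.

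**Figure D5:**
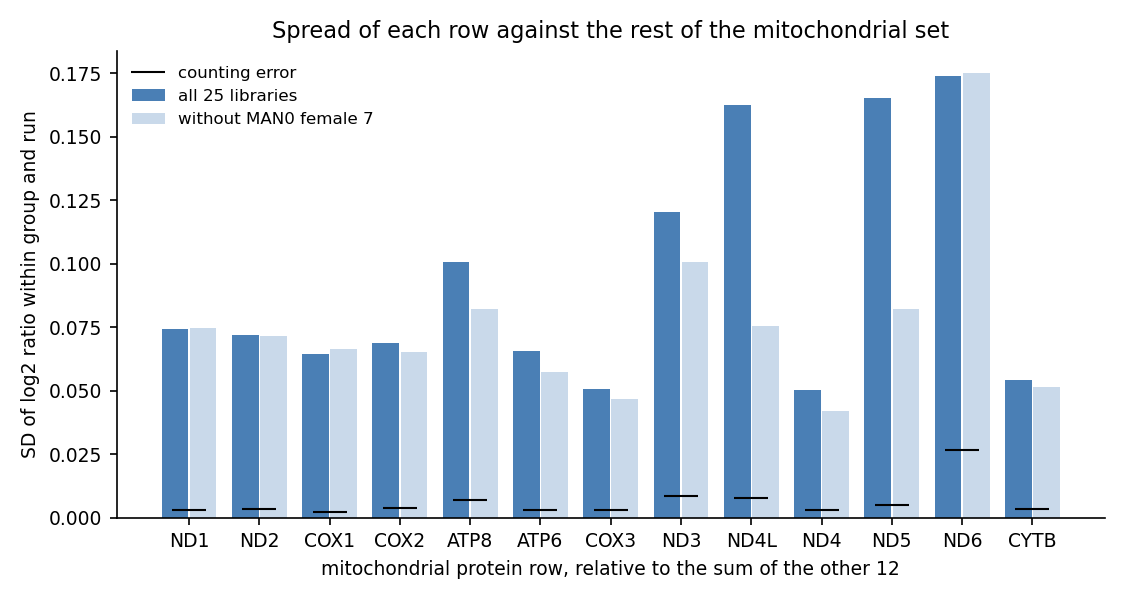
SD within group and run of the log2 ratio of each mitochondrial protein row to the sum of the other 12 (bars from 0; dark, all 25 libraries; light, without MAN0 female 7), with the SD that counting error alone would give (black marks). ND6 has the largest SD in both sets, 0.174 and 0.175, and the values of ND5 and ND4L drop to 0.0822 and 0.0757 without MAN0 female 7.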

How the data were processed

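Messenger RNA of bulk nucleus accumbens was sequenced in 25 libraries. The authors deposited a table of estimated counts per Ensembl gene identifier, made with Trim Galore, MultiQC and kallisto, per the submitters' processing notes; for versions, genome build, annotation and strand setting: not given in the sources used here. Of a library's values 9.11% to 10.1% were not whole, and counts were rounded before the tests. Of 26397 RefSeq genes of MicOch1.0 at hand, 0 carried an Ensembl identifier. Levels were tested with edgeR 4.0.16 in R 4.3.3 (filterByExpr minimum count 10, 14843 genes, TMM, quasi-likelihood, 4 group means and run, Benjamini-Hochberg adjusted p under 0.05). Ratios were tested by least squares with run and exact permutation, and correlations with 100000 permutations. Genes named are the 13 mitochondrial rows and the 3 others most correlated with ND6 above a mean log2 CPM of 1. DESeq2 1.42.0 and limma 3.58.1 served as alternatives. Both tests were also run on simulated data, with a fixed spread for the ratio and a trended dispersion for the counts. Neither was set to the spread of ND6, so these runs do not give the error rates for that row. ND6 was taken up for description, and the lists were chosen, with earlier results of these data known, although the rule that picks its row uses no value.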

Additional observations from a re-analysis of the deposited data

Results flagged for a closer look

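Each of 24 sets of values (6 measures in 4 groups) was screened for a library far from the rest of its group, and chance flags about 1 in 20 groups. MAN0 male 2 stood apart in level, with 285 CPM for ND6, 7319 CPM for ND5 and 17525 CPM for CYTB. Its ND6 to CYTB ratio, 1.63%, was inside the range of the other MAN0 males. MAN0 female 7 stood apart with ND6 at 5.57% of ND5. MAN1 female 5 stood apart on the low side, with ND6 at 2.51% of ND5, while the other MAN1 females lay at 3.38% or above. MAN1 male 2 had ND5 at 40.4% of CYTB, below the other MAN1 males. The same library can be behind several of these values.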

How the results depend on the processing

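ND6 did not pass in level under any of the 6 comparisons and their alternatives, with adjusted p from 0.24 upward, and neither did a ratio. The log2 differences without 1 library ranged from -0.70 to -0.37 for the level in males, from -0.29 to -0.18 for the CYTB ratio in males and from -0.28 to -0.17 for the ND5 ratio in males. The sign turned for values near 0. For the female CYTB ratio (0.0008) it was -0.0008 against the other 12 rows, -0.0014 with the replicate block, -0.0028 in run 1, -0.0136 in run 2, and -0.047 to 0.071 without 1 library. The female ND5 ratio was 0.041 in run 1, 0.037 without MAN0 male 2 and MAN0 female 7, and -0.15 to 0.037 without 1 library. The ND5 ratio between runs was -0.10 to 0.046 without 1 library. Without 1 library, the CYTB ratio ranged from -0.14 (MAN0 male 4) to -0.075 (MAN1 female 5) averaged over sexes, from -0.082 (MAN0 male 6) to -0.019 (MAN0 female 1) between sexes and from -0.12 (MAN0 male 6) to -0.026 (MAN1 female 5) between runs. The ND5 ratio averaged over sexes was -0.086 without MAN0 male 2 and MAN0 female 7. Males against females gave 0.046 for the level in run 1 and 0.039 for the CYTB ratio in run 2. As shares of the mitochondrial counts the relations turned to -0.147 (ND5) and -0.126 (CYTB). The cause of these sign changes was not tested. With the replicate number as a block, the level in males was -0.55 (edgeR, Benjamini-Hochberg adjusted p = 0.748). The CYTB ratio in males was then -0.20 (exact permutation p = 0.0312) and did not pass after adjustment. That p is the smallest this permutation can give, because labels were exchanged only within a shared number. With the same block the ND5 ratio went from -0.22 to -0.14 in males (exact permutation p = 0.156) and from -0.15 to -0.084 averaged over sexes. The labels do not say that the numbers pair libraries, and 16 of 34 same-numbered pairs had a correlation above 0.1. Their median was 0.086 against -0.010 for the 199 other pairs, and 10 of 25 libraries matched their own number best. These correlations were of deviations from group means, with run left in. Same-numbered libraries always share a run, while the other pairs include libraries of different runs, so this comparison does not separate number from run. Pairs of different number within the same run were not compared apart. The share of other pairs above 0.1 and the number of best matches expected without pairing were not computed. Over all genes, DESeq2 called 9 averaged over sexes and 7 between runs, where edgeR called 0. Run 2 alone called 1 in males, 1 in females and 3 averaged, and the sex calls went from 2 to 1 with the block and in run 1 and to 0 in run 2. Without 1 library, the sex calls ranged from 1 to 3, and 1 gene was called between runs or averaged over sexes in some fits. ND6 was in none of these.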

Other observations

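The ND6 to CYTB ratio lay on the same side for libraries that share some replicate numbers, a pattern seen after the values were known and not tested. All 4 libraries numbered 4 and all 4 numbered 5, 1 of each group, lay below their own group's mean. Their ratios averaged 1.24% ± 0.081 and 1.24% ± 0.145 (SD, n = 4 each). The 3 libraries numbered 6 averaged 1.59% ± 0.196, with MAN0 female 6, at 1.41%, slightly below its group mean of 1.43% and the other two above theirs. Of the 4 libraries with number 1, 2 or 3, 1 each lay below. Libraries numbered 4 belong to run 1 and those numbered 5 and 6 to run 2. The labels do not say what a shared number stands for.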
